A study of Mus musculus with 16 samples.

Results

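The report describes gene expression in mouse embryonic stem cells (ESCs) that lack the coiled coil of MBD3, set against ESCs that retain it, after 12 days without leukaemia inhibitory factor (LIF). It uses 8 of the 16 arrays of the series, chosen by their titles as the arrays without LIF. Of these, 3 come from lines without the coiled coil and 5 from lines with it. The other 8 arrays hold the same lines with LIF and are used to show where the contrast without LIF differs. They also entered the choice of probe sets and the filter on dim genes. Total RNA was labelled for Affymetrix arrays, and each line has 1 array in each condition.

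All 8 lines are male ESCs of strain 129SV, and all descend from EBRTcH3, which the labels call wild type. The 7 other lines are null for the a, b and c isoforms of MBD3 and carry a stably introduced vector. The 3 lacking lines carry an empty vector (Empty), MBD3a without its coiled coil (deltaCC), or MBD3a without both the methyl-CpG-binding domain and the coiled coil (deltaMBD&CC). The 5 retaining lines are EBRTcH3 itself and lines carrying MBD3a (Mbd3a), MBD3b (Mbd3b), MBD3c (Mbd3c) or MBD3a without the methyl-CpG-binding domain (deltaMBD). The labels name no second culture or clone of any line, so the lines serve as replicates of a class and p-values measure the spread between lines.

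MBD3 is a subunit of NuRD, a complex that joins the nucleosome remodeller CHD4 to the histone deacetylases HDAC1 and HDAC2. In the closely related protein MBD2 the coiled coil binds the NuRD subunit GATAD2A. LIF keeps mouse ESCs self-renewing through STAT3, and ESCs that are deprived of it leave self-renewal and begin to express genes of embryonic and extraembryonic lineages. NuRD is known for its part in that exit, since ESCs without MBD3 go on self-renewing when LIF is withdrawn. The series title names the coiled coil as the element of MBD3 under study and lineage commitment as the outcome.

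Values are the deposited log2 signals. For each gene they are given in the order Empty, deltaCC and deltaMBD&CC for the lacking lines, then EBRTcH3, Mbd3a, Mbd3b, Mbd3c and deltaMBD for the retaining lines. A difference is the mean of the lacking lines minus that of the retaining lines on the log2 scale, with its standard error (SE) from limma. Genes pass where the Benjamini-Hochberg p, adjusted over 22872 tested genes, is under 0.05. The 8 arrays had medians of 4.72 to 4.81 and correlated with each other at 0.984 to 0.994.

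Mbd3 itself read 7.45, 9.02 and 8.45 in the lacking lines, against 9.17, 8.96, 9.59, 8.57 and 8.56 in the retaining lines. The lowest value was that of Empty, and the classes overlapped (difference -0.66, SE 0.34, adjusted p = 0.208). The sources used here do not say which part of the transcript the probe set covers, so it does not check the deletions. Of the 7 ESC markers, such as Pou5f1 and Sox2, all lay above the filter value of 4.24 to 4.38 on all 8 arrays. Their mean level was 11.00 to 11.10 in the lacking lines and 10.60 to 11.15 in the retaining lines. The fibroblast and feeder markers averaged 5.09 to 5.20 in the lacking lines and 5.20 to 5.75 in the retaining lines, and of these Lum and Fap lay below the filter on all 8 arrays. In bulk RNA, fewer cells of a type and less RNA per cell cannot be told apart.

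Without LIF, 4791 genes differed between the classes, 20.9% of those tested. Of these, 1955 were higher in the lacking lines (8.55% of tested genes) and 2836 were lower (12.4%). Counts over gene lists are read against these shares. The share of higher calls, 40.8%, depended on the scaling of the arrays. It was 49.4% after quantile normalization and 63.7% after centring each array on its median, which moved the median difference of all genes to 0.11 (0.01 as deposited). At 2-fold or more, 257 genes were higher and 497 lower, with 287 and 453 after quantile normalization and 321 and 404 after median centring. Of the 4791 calls, 4505 had no overlap between the classes, where 26.6% of all tested genes had none. At 4-fold or more there were 25 higher and 77 lower genes, and at 8-fold or more 8 higher and 12 lower genes.

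The genes that were at least 2-fold lower in the lacking lines had, by their medians, gained signal in the retaining lines after LIF was withdrawn and hardly changed in the lacking lines. For these 497 genes the median change from the array with LIF to the array without was 0.24 in Empty, 0.23 in deltaCC and 0.13 in deltaMBD&CC. Of the retaining lines, EBRTcH3 had a median of 1.39, Mbd3a had 1.50, Mbd3b had 1.46, Mbd3c had 1.60 and deltaMBD had 1.21. The median class difference of these genes was -1.32 without LIF and -0.09 with LIF. These genes were chosen by the contrast without LIF, so their medians are a description.

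With LIF, 3233 genes differed between the classes (14.1% of tested genes, 7.65% higher and 6.48% lower). The class difference itself changed with LIF for 2759 genes (12.1%), in the positive direction for 4.17% and in the negative direction for 7.9% of tested genes. Of the 497 lower genes, 125 were also lower with LIF, 43 were higher with LIF and 329 did not pass there. The test of the change in difference passed in the same direction for 384 of them. Of the 257 higher genes, 158 were also higher with LIF, 7 were lower and 92 did not pass there. The 257 include 35 snoRNA genes of 1 stretch, described below, which hold 21 distinct profiles. Of these 35, 34 are among the 158, so the counts and medians of the higher genes are not over independent measurements. The median class difference of the 257 was 1.33 without LIF and 0.86 with LIF, and the change in difference passed in the same direction for 99. On LIF withdrawal these genes changed by a median of 0.10 in the lacking lines and -0.37 in the retaining lines. The plot of both differences shows the lower genes spread around 0 on the LIF axis and many higher genes near the diagonal.

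**Figure D1:**
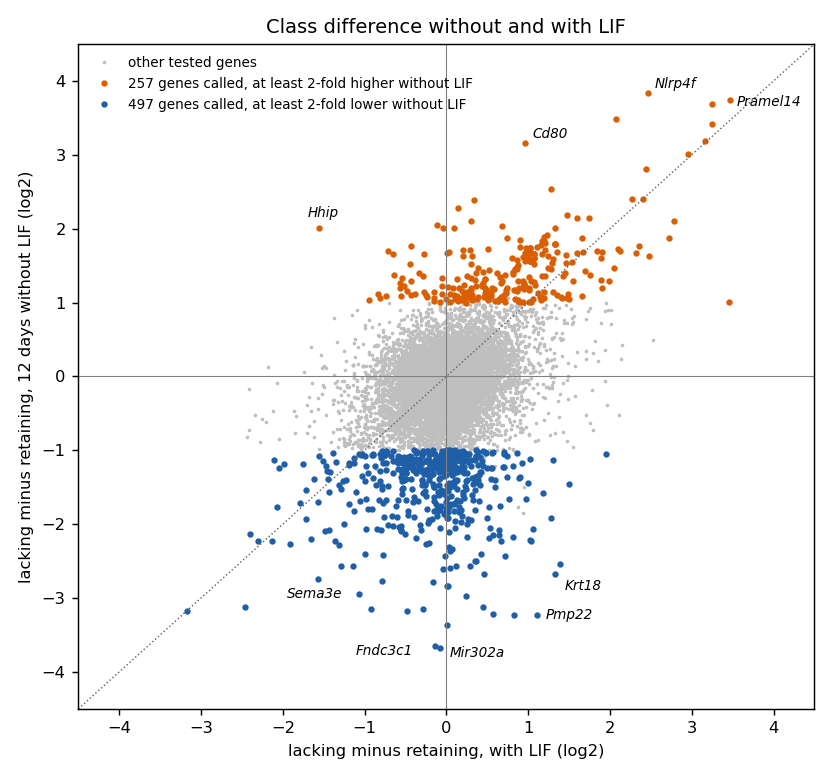
Each point is a tested gene, with its class difference (lacking minus retaining, log2) with LIF on the horizontal axis and after 12 days without LIF on the vertical axis. The 257 genes at least 2-fold higher without LIF are orange and the 497 at least 2-fold lower are blue, and the dotted line marks equal differences. The blue points gather around 0 on the horizontal axis (median -0.09), while the median of the orange points lies to its right (0.86). Some orange points lie to its left, among them Hhip (-1.56).

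The genes with the largest excess in the lacking lines included several known from the germ line. Nlrp4f belongs to a family of NLR proteins that is expressed in oocytes. It read 8.52, 8.72 and 8.80 in the lacking lines, against 4.80, 4.54, 4.55, 4.59 and 5.77 in the retaining lines. All lacking lines were far above all retaining lines, among which deltaMBD stood highest. The difference was 3.83 (SE 0.26, adjusted p = 1.16e-05), or 14.2-fold. It was 2.46 with LIF, and the change in difference passed (1.37, adjusted p = 0.00932).

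Sohlh2, a transcription factor of spermatogonia and oocytes, read 9.71, 9.69 and 9.69 in the lacking lines. In the retaining lines it read 5.95, 5.79, 6.20, 5.87 and 6.24. The 3 lacking lines were almost level, and the gap between the classes was 12.9-fold (3.69, SE 0.11, adjusted p = 4.84e-07). The excess was already present with LIF (3.25), and the change in difference did not pass (0.44, adjusted p = 0.296). Pramel14 and Pramel30 belong to the PRAME-like family, whose members resemble each other closely in the mouse, so their probe sets may share signal. Pramel14 read 9.00, 9.70 and 9.65 in the lacking lines, against 6.38, 5.33, 5.32, 5.29 and 6.23 in the retaining lines. It was 13.4-fold higher (3.74, SE 0.29, adjusted p = 2.81e-05), and Pramel30 was 10.7-fold higher (3.42, SE 0.22, adjusted p = 9.46e-06). For both the classes were well separated, and the difference with LIF was nearly as large, at 3.46 for Pramel14 and 3.25 for Pramel30.

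Of the 15 tested genes of the germline and meiosis list, 6 were higher in the lacking lines and 0 lower, where 8.55% of all tested genes were higher and 12.4% lower. There were 3 higher without Empty, deltaCC or deltaMBD&CC, and 6 higher and 3 lower without EBRTcH3. Dazl, an RNA-binding protein of germ cells, was 2.02-fold higher (1.01, SE 0.12, adjusted p = 0.000302). The list's median was -0.05, close to that of all genes (0.01), and its sign turned under median centring, with the title run as a covariate and without EBRTcH3 (0.17), Mbd3b, Empty, deltaCC or deltaMBD&CC. Most of its meiotic members did not pass. The list is therefore described by its 6 calls rather than by a common shift.

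Genes outside the germ line were raised as strongly. Gpr83, a G-protein-coupled receptor, read 8.62, 8.49 and 8.58 in the lacking lines, against 4.41, 5.06, 5.22, 5.19 and 5.48 in the retaining lines (3.49, SE 0.20, adjusted p = 4.24e-06). Srgn encodes serglycin, the proteoglycan core of secretory granules, and was 9.12-fold higher. Gpx2, a glutathione peroxidase, read 10.32, 10.40 and 10.28 in the lacking lines, against 7.51, 7.01, 7.16, 7.05 and 7.86 in the retaining lines. These are 8.08-fold apart (adjusted p = 5.89e-06) with no overlap. Its pseudogene Gpx2-ps1 was 7.02-fold higher, and signal may be shared between this pair. Srgn (3.16) and Gpx2 (2.96) differed by nearly the same amount with LIF.

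For other genes the excess was larger without LIF than with it. Cd80, a ligand that co-stimulates T cells, read 9.35, 9.27 and 9.31 in the lacking lines, against 5.98, 5.46, 5.99, 6.74 and 6.58 in the retaining lines. Without LIF it was 8.94-fold higher (3.16, SE 0.25, adjusted p = 2.93e-05), while with LIF the difference was 0.97 and did not pass (adjusted p = 0.119). The change in difference was 2.19 (adjusted p = 0.0241). Septin1, a filament-forming GTPase, changed its difference by 2.06 and Mmrn2, an endothelial matrix protein, by 2.14. Hhip, which binds hedgehog ligands and so restrains their signal, turned its sign. It read 7.84, 7.63 and 7.84 in the lacking lines, against 4.74, 5.38, 5.59, 5.68 and 7.39 in the retaining lines, of which deltaMBD came close to the lacking lines. Its difference was 2.01 without LIF (SE 0.46, adjusted p = 0.0125, and 0.052 without deltaMBD&CC) and -1.56 with LIF (adjusted p = 0.0281). With LIF Hhip read 9.30, 6.97 and 7.81 in the lacking lines, against 8.99, 9.60, 10.06, 9.60 and 9.70 in the retaining lines. The classes overlapped there, since Empty lay among the retaining lines.

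The remaining genes among the 15 largest rises were Ccdc141 (2.53), Calml4 (2.40), a calmodulin-like protein, Xaf1 (2.40), an interferon-inducible partner of the apoptosis inhibitor XIAP, and Apod (2.18), a lipid carrier. The signal by line shows that for Nlrp4f, Sohlh2 and Gpx2 the lacking lines were high in both conditions, whereas for Tagln, Pmp22, Krt18 and Sema3e the retaining lines gained signal after withdrawal.

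**Figure D2:**
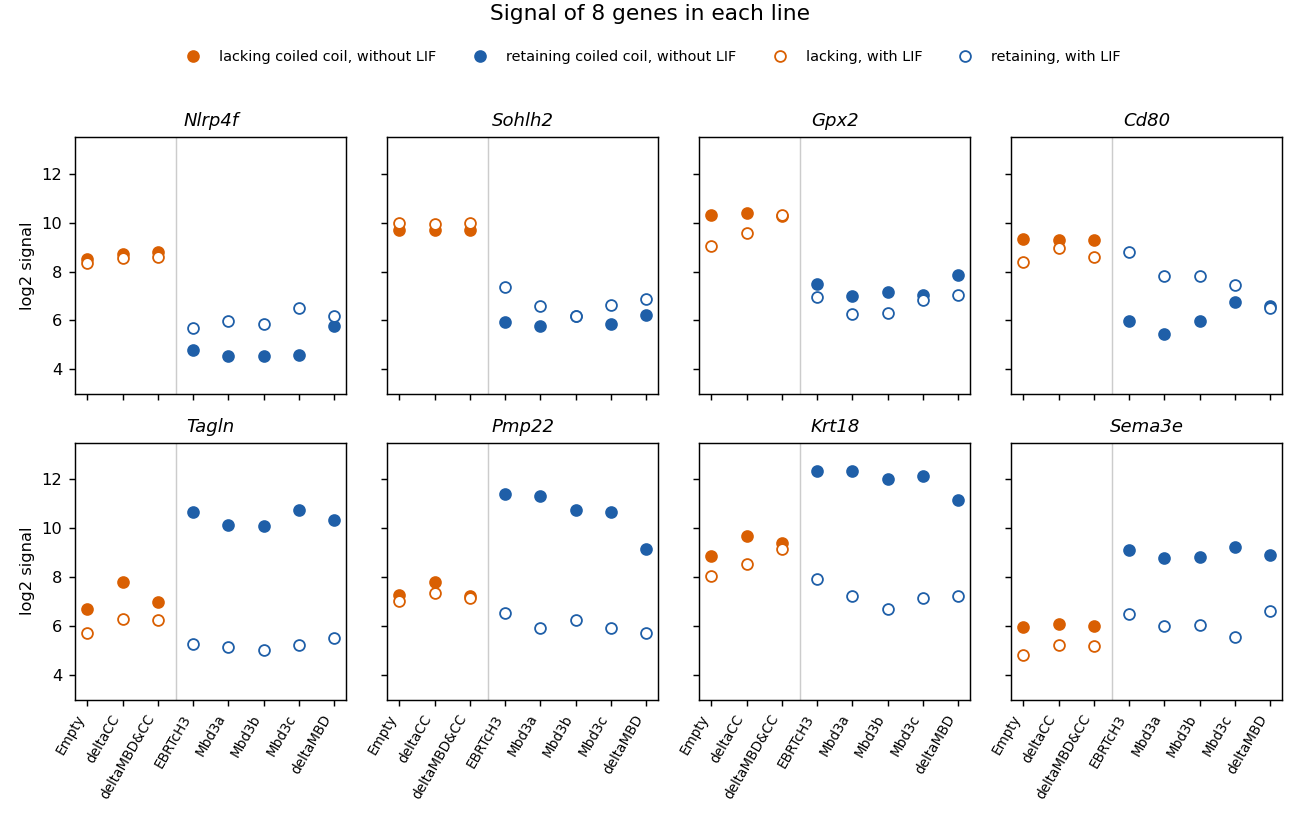
Log2 signal (vertical axis) of 8 genes in each of the 8 lines (horizontal axis), filled circles without LIF and open circles with LIF, lacking lines in orange and retaining lines in blue, 1 array per circle. In the upper row the lacking lines lie above the retaining lines without LIF, and in the lower row below them. Tagln reaches 10.09 to 10.75 in the retaining lines without LIF, against 6.72 to 7.81 in the lacking lines.

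Several transcription factors of the naive pluripotent state were higher in the lacking lines. Of 15 tested genes on the naive pluripotency list, 7 were higher and 1 lower, with a list median of 0.70, where 8.55% of all tested genes were higher. The count of higher genes was 13 without deltaMBD, and 4 without deltaCC or without deltaMBD&CC. With LIF, 1 was higher and 3 lower, with a median of -0.27. Tfcp2l1, which acts downstream of STAT3, read 9.68, 9.74 and 9.51 in the lacking lines, against 8.56, 8.63, 8.59, 8.36 and 8.71 in the retaining lines (1.07, SE 0.10, adjusted p = 6.31e-05). The nuclear receptor Esrrb read 10.67, 10.64 and 10.53 in the lacking lines, against 9.41, 9.62, 9.72, 9.19 and 10.01 in the retaining lines (1.02, SE 0.16, adjusted p = 0.00154). Both separated the classes completely. Klf4, a reprogramming factor, was 0.77 higher (SE 0.10, adjusted p = 0.000693) and Tbx3, a T-box factor that supports self-renewal, was 1.17 higher (SE 0.30, adjusted p = 0.0204). The call of Tbx3 was lost without Empty, deltaCC or deltaMBD&CC (adjusted p = 0.0598 to 0.0723). The change in difference passed for Tfcp2l1 (0.84), Esrrb (1.18), Klf4 (0.70) and Tbx3 (0.69).

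The exception on that list was Dppa3, a maternal factor that protects DNA methylation in the zygote. It read 4.25, 4.37 and 4.36 in the lacking lines, against 6.12, 6.10, 6.69, 6.49 and 6.64 in the retaining lines. The lacking lines lay at the filter value, so these levels are a description. Nanog, a homeobox factor of the same network, was 0.34 higher and did not pass (SE 0.13, adjusted p = 0.0995).

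Among 12 core pluripotency genes, 3 were higher and 1 lower (median 0.17), where 8.55% of all tested genes were higher and 12.4% lower. Pou5f1, which encodes OCT4, read 12.18, 12.30 and 12.12 in the lacking lines, against 11.93, 12.23, 12.28, 12.14 and 12.33 in the retaining lines. The classes overlapped (0.02, adjusted p = 0.931), and both were near the top of the array's range. Sox2, its partner, read 11.24, 11.24 and 11.11 in the lacking lines, against 10.12, 10.34, 10.64, 10.21 and 11.07 in the retaining lines (0.72, SE 0.19, adjusted p = 0.0244). The deltaMBD line came close to the lacking lines, and the call was lost without Empty, Mbd3a, Mbd3c, deltaCC or deltaMBD&CC (adjusted p = 0.0532 to 0.0818) and with the run of title numbers as a covariate (0.0961). Tet1, an enzyme that oxidises methylcytosine, was 0.53 higher, and Lin28a, which blocks maturation of the let-7 microRNAs, differed by -0.85 (SE 0.10, adjusted p = 0.000391).

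The list of LIF and STAT3 targets mostly went the other way. It includes pathway members such as Lifr, Il6st, Osmr and Stat3, while Tfcp2l1, Klf4 and Tbx3 are on the naive list. Of 13 tested, 1 was higher and 8 lower (median -0.37; 12.4% of all tested genes were lower), against 1 and 1 with LIF. Without deltaMBD&CC 4 were lower and 0 higher, and with the title run as a covariate 5 were lower and 0 higher. The higher call was also lost without Mbd3a, Mbd3b, Mbd3c, Empty or deltaCC. Myc read 8.56, 8.93 and 8.64 in the lacking lines, against 10.07, 10.00, 9.86, 9.96 and 9.65 in the retaining lines (-1.20, SE 0.12, adjusted p = 0.000108), with no overlap. Osmr, the oncostatin M receptor, lay below the filter value in the lacking lines, at 3.93, 4.09 and 4.23, against 5.15, 5.60, 5.33, 5.20 and 4.42 in the retaining lines. The stress-response gene Ier3 differed by -0.86 (adjusted p = 0.0197, with 0.0975 without deltaMBD&CC and 0.0707 with the title run as a covariate).

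Genes of the contractile cytoskeleton showed one of the clearest deficits in the lacking lines. Of 13 tested genes on the smooth muscle and actin cytoskeleton list, 11 were lower and 0 higher, where 12.4% of all tested genes were lower. The list median was -1.23. With LIF, 3 were higher and 1 lower (median 0.34), and the change in difference passed as lower for 9. Under median centring 10 were lower.

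Tagln, which encodes the actin-binding protein transgelin, read 6.72, 7.81 and 6.99 in the lacking lines. In the retaining lines it read 10.68, 10.12, 10.09, 10.75 and 10.35. The highest lacking line, deltaCC, was still more than 2 log2 units below the lowest retaining line. Tagln was 9.35-fold lower without LIF (SE of the log2 difference 0.24, adjusted p = 2.43e-05) but 0.83 higher with LIF (adjusted p = 0.00472). Acta2, smooth muscle actin, read 6.64, 7.48 and 6.49 in the lacking lines, against 10.18, 9.50, 9.64, 10.38 and 10.29 in the retaining lines. It was 8.74-fold lower (-3.13, SE 0.26, adjusted p = 4.56e-05), and deltaCC was again the highest lacking line. Des, the intermediate filament desmin, was 4.23-fold lower (-2.08, SE 0.17, adjusted p = 3.3e-05) and was also lower with LIF (-1.43). Cnn1, the calponin of smooth muscle, was 2.63-fold lower (adjusted p = 0.00045).

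Many genes of this class are controlled by serum response factor, which binds a motif known as the CArG box. The 250 bases before each annotated start were searched in the RefSeq promoters of GRCm38.p6. Only the strict form CCWWWWWWGG was taken, with W for A or T. It is its own reverse complement, so both strands were covered. A match was found for 482 of 32851 promoters (1.47%) and for 3 of the 11 tested list members that have a promoter in the table. Those 3 are shown because the motif is in the window, with the box in capitals. They are Myl9 (chr2:156775214-156775463, plus strand), a myosin light chain, Cnn2 (chr10:79988350-79988599, plus strand), a calponin, and Vcl (chr14:20929148-20929397, plus strand), the focal adhesion protein vinculin.
Myl9: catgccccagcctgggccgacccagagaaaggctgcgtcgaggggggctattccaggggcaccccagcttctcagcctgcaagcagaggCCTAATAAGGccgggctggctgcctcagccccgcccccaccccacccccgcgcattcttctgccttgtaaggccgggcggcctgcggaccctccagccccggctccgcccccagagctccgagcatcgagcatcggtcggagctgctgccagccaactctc
Cnn2: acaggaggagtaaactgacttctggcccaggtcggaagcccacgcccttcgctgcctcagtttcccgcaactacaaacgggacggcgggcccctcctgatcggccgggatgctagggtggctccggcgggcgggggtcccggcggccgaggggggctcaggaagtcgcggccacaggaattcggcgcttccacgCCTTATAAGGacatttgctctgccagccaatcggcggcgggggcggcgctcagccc
Vcl: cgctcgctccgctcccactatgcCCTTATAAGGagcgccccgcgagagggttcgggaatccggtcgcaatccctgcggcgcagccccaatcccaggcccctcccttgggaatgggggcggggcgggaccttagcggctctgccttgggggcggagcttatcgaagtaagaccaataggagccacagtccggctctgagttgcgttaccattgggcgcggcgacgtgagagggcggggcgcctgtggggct

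The box begins at -161 in Myl9, -56 in Cnn2 and -227 in Vcl, counted from the annotated start. Cnn2 read 9.92, 10.03 and 9.89 in the lacking lines, against 10.88, 10.78, 10.52, 10.80 and 10.71 in the retaining lines (-0.79, SE 0.09, adjusted p = 0.000305). Vcl differed by -0.53 (SE 0.12, adjusted p = 0.00973, and 0.0506 without Empty). Myl9 read 6.75, 7.30 and 7.25 in the lacking lines, against 7.31, 7.23, 7.66, 8.03 and 8.03 in the retaining lines, and the classes overlapped (-0.55, SE 0.21, adjusted p = 0.0999). The windows of Acta2, Des and Cnn1 hold no strict match. Acta2 and Des were named for the size of their differences, and Cnn1 lies outside the naming rule. Differences of members with and without a match are therefore not compared here. The Acta2 window holds CCCTATATGG and CCTTGTTTGG, each of which misses the strict form by a base. Such near forms were not searched for in the other windows. A match in these letters is a description, and no match says only that the strict form is not in this window.

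Genes of mesenchyme and extracellular matrix were lower in the lacking lines as well. Of 19 tested, 13 were lower and 0 higher (median -0.60; 12.4% of all tested genes were lower), against 5 lower and 4 higher with LIF. There were 8 lower without Empty or with the title run as a covariate, and 7 without deltaMBD&CC. Thbs1, a matrix glycoprotein, read 7.83, 8.90 and 8.34 in the lacking lines, against 10.21, 10.32, 10.25, 11.19 and 10.23 in the retaining lines (-2.08, SE 0.27, adjusted p = 0.000569). Ccn1, a matrix-associated signalling protein, was 4.08-fold lower, and Bgn, the proteoglycan biglycan, was 3.79-fold lower. Bgn turned its sign with LIF (1.27), while the filament protein Vim was lower in both conditions, at -1.72 without and -1.79 with LIF. The fibroblast and feeder list had 1 higher and 3 lower of 7 (median -0.61; 5 lower without deltaMBD). Its lower members were Cd44 (-1.73), a hyaluronan receptor, Col1a1 and Dcn, which lay below the filter value in the lacking lines, and Thy1 was higher (0.79). Dcn is also among the 13 lower matrix genes. It entered the test only through retaining lines without LIF, so its part in both counts is a description. The part of feeder cells in these matrix differences was not tested.

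Epithelial genes made up a second clear deficit. Of 16 tested genes for junctions and keratins, 13 were lower in the lacking lines and 1 higher (median -1.10), where 12.4% of all tested genes were lower and 8.55% higher. With LIF the picture was turned, with 11 higher and 0 lower (median 0.68), and the change in difference passed as lower for 13. The mean level of the list was 8.79, 9.03 and 8.84 in the lacking lines, against 10.08, 10.24, 9.97, 10.07 and 9.52 in the retaining lines. With LIF it was 8.45, 8.53 and 8.71 in the lacking lines, against 8.04, 7.88, 7.64, 7.94 and 7.95 in the retaining lines.

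Krt18, a keratin of simple epithelia, read 8.89, 9.69 and 9.42 in the lacking lines. In the retaining lines it read 12.33, 12.36, 12.04, 12.14 and 11.15, with deltaMBD lowest. It was 6.37-fold lower without LIF (-2.67, SE 0.27, adjusted p = 0.000143) and 1.33 higher with LIF (adjusted p = 0.00799). Its partner Krt8 was lowest in the same retaining line, at 8.91, 9.75 and 9.43 in the lacking lines against 11.87, 11.83, 11.65, 11.78 and 10.83 in the retaining lines (-2.23, SE 0.25, adjusted p = 0.000272). Desmosomal genes were lower too, with Dsp at -2.15 and Dsc2 at -2.68. Cdh1, the epithelial cadherin, differed by -0.44 (SE 0.10, adjusted p = 0.0132, and 0.0649 without deltaMBD&CC) from a high level in both classes.

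The trophectoderm and trophoblast list shares its keratins with the epithelial list. Of 20 tested, 8 were lower and 2 higher (median -0.81; 12.4% of all tested genes were lower), against 2 lower and 7 higher with LIF. Without deltaMBD 13 were lower and 3 higher, and with the title run as a covariate the median was -0.48. Cdx2, the transcription factor that sets up the trophectoderm, read 5.79, 5.83 and 5.55 in the lacking lines. In the retaining lines it read 9.47, 8.23, 7.78, 7.91 and 7.04, highest in EBRTcH3 and lowest in deltaMBD. The difference was -2.36 (SE 0.42, adjusted p = 0.00324). Elf5, a factor of trophoblast stem cells, went the other way, at 6.46, 6.08 and 6.18 in the lacking lines against 5.31, 5.26, 5.01, 5.06 and 4.99 in the retaining lines (1.11, SE 0.11, adjusted p = 0.000137). The list therefore did not move as one.

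The largest deficit among the named genes other than microRNAs was that of Fndc3c1, an X-linked gene with fibronectin type III domains. It read 5.86, 6.27 and 5.76 in the lacking lines, against 9.59, 9.40, 9.58, 9.79 and 9.71 in the retaining lines. That is 12.6-fold lower (-3.65, SE 0.13, adjusted p = 1.01e-06), with each class tight. With LIF the difference was -0.14. Pmp22, a myelin and junction protein, read 7.28, 7.79 and 7.23 in the lacking lines, against 11.42, 11.32, 10.76, 10.68 and 9.15 in the retaining lines. It was 9.40-fold lower without LIF (adjusted p = 0.000716) and 1.11 higher with LIF, a change in difference of -4.34 (adjusted p = 7.37e-05).

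Among the rest of the 15 largest falls, Sema3e, a secreted semaphorin, read 5.95, 6.11 and 6.01 in the lacking lines, against 9.10, 8.80, 8.83, 9.23 and 8.91 in the retaining lines (-2.95, SE 0.11, adjusted p = 1.02e-06). Sema6a, a membrane-bound semaphorin, differed by -3.18 and Prtg, an immunoglobulin-family receptor of the early embryo, by -2.77. Others were Colec12 (-3.15), a scavenger receptor, Vwa5a (-3.15), Vgll3 (-2.83), a cofactor of TEAD factors, St6gal2 (-2.78), a sialyltransferase, and Irs1 (-2.74), an adaptor of the insulin receptor.

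Genes of the formative and primed epiblast were mixed, with 4 higher and 6 lower of 14 (median -0.21). Of all tested genes 8.55% were higher and 12.4% lower. With LIF 6 of the list were higher and 1 lower. Lower members included Cdh2 (-1.68), the neural cadherin, Cldn6 (-1.11) and Fgf5 (-1.02), the usual marker of the epiblast. Fgf5 read 7.70, 8.08 and 7.99 in the lacking lines, against 8.65, 8.92, 8.82, 9.50 and 8.82 in the retaining lines. Its classes did not overlap (SE 0.18, adjusted p = 0.00281).

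Gastrulation mesoderm had 3 of 14 tested genes lower and 0 higher, near the 20.9% of all tested genes that passed, with a median of -0.08. Without deltaMBD&CC 1 was lower, and without deltaMBD 5 were lower and 1 higher. Mixl1, a homeobox factor of the primitive streak, read 5.53, 5.36 and 5.02 in the lacking lines, against 8.71, 7.70, 6.82, 7.22 and 5.80 in the retaining lines. The retaining lines spread over nearly 3 log2 units, and deltaMBD came close to the lacking lines (-1.95, SE 0.51, adjusted p = 0.023). Wnt3, the ligand that induces the streak, behaved alike (-1.56, SE 0.35, adjusted p = 0.0116). The call of Mixl1 was lost without Empty, Mbd3a, deltaCC or deltaMBD&CC (adjusted p = 0.0513 to 0.0943) and with the title run as a covariate (0.0843).

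Among 12 neuroectoderm genes 4 were lower and 1 higher, where 12.4% of all tested genes were lower and 8.55% higher. The list median was -0.08, and 0 of the list were higher without Empty or deltaCC. Sox11, a transcription factor of neural precursors, read 5.83, 6.08 and 5.90 in the lacking lines, against 7.52, 7.48, 7.51, 7.75 and 7.99 in the retaining lines (-1.71, SE 0.13, adjusted p = 2.18e-05). Nes, the neural filament nestin, differed by -1.53 (SE 0.22, adjusted p = 0.00094). Here deltaMBD was among the highest retaining lines, unlike its place for Mixl1 and Cdx2.

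Primitive and extraembryonic endoderm had 5 lower and 4 higher of 18 (median -0.17), where 12.4% of all tested genes were lower and 8.55% higher. The lower ones on this list were basement membrane genes such as Sparc (-1.27) and Lamb1 (-1.19) and the factor Gata4, and the highest of the others was Srgn. The cardiac list had 2 lower of 11 (4 without Mbd3c), a share near the 20.9% of all tested genes that passed. They were Tbx20 (-2.02, SE 0.28, adjusted p = 0.000736), a T-box factor of the heart, and Gata4 (-0.78). Blood and endothelium had 3 higher and 3 lower of 12. Tek, the angiopoietin receptor, was 1.73 higher and the adhesion molecule Pecam1 1.14 higher, while Flt1, a receptor of VEGF, differed by -1.44. Of 14 tested HOX and homeobox genes 1 was lower, Msx2 (-1.67, SE 0.51, adjusted p = 0.0442), and 0 passed under quantile normalization. The call of Msx2 was lost without Empty, Mbd3a, Mbd3b, Mbd3c, deltaCC or deltaMBD&CC (adjusted p = 0.064 to 0.148). It was also lost with the title run as a covariate (-1.20, adjusted p = 0.167). The list medians of mesoderm, neuroectoderm and blood turned their sign under median centring.

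**Figure D3:**
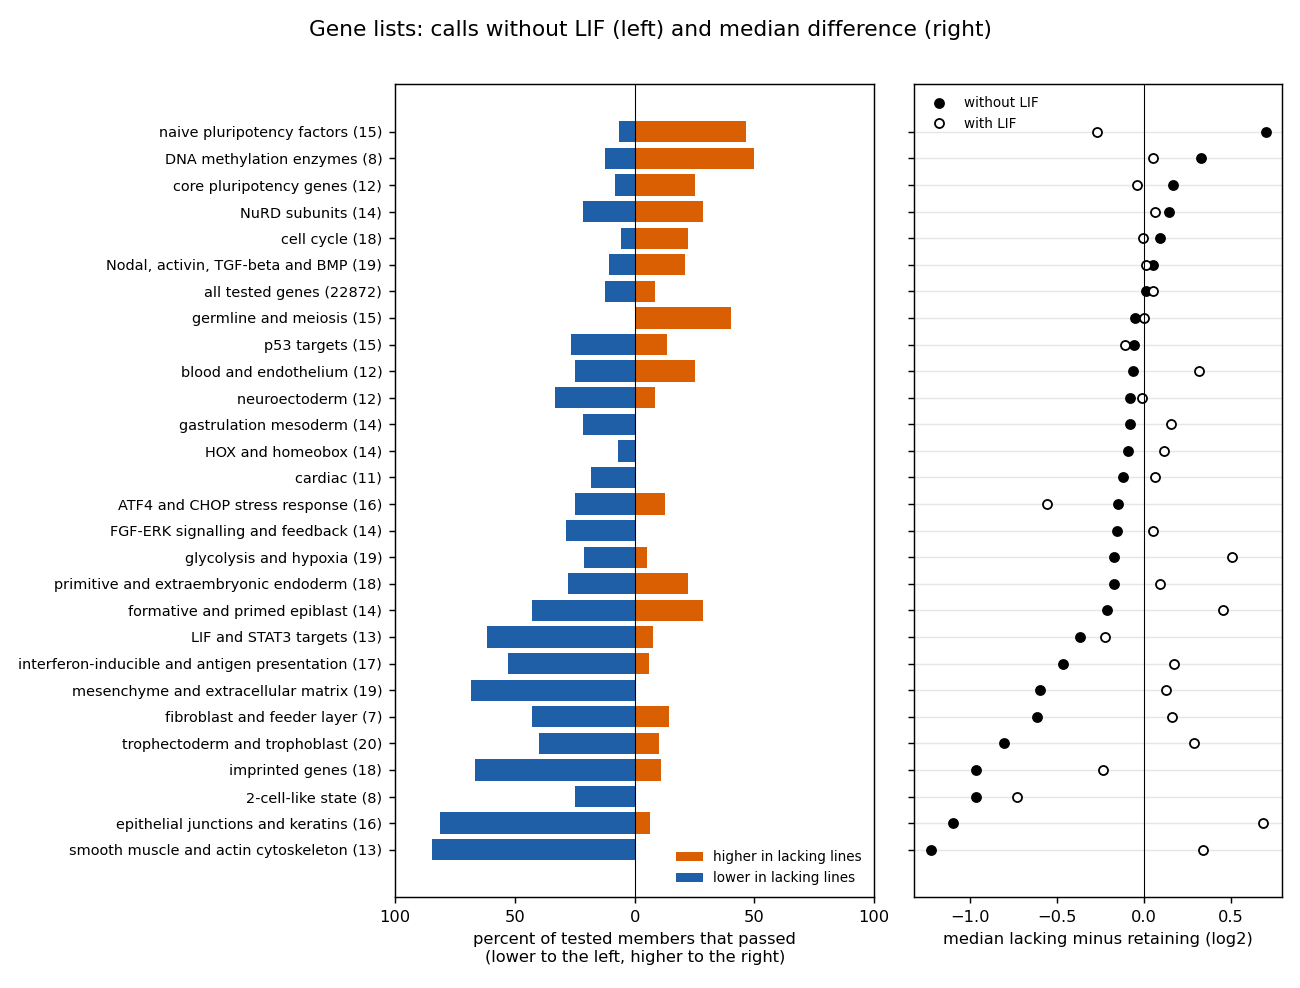
For each gene list (number of tested members in brackets) the left panel shows the percent of members that were higher (orange, to the right) or lower (blue, to the left) in the lacking lines without LIF, with all tested genes for comparison. The right panel shows the median class difference (log2) without LIF (filled) and with LIF (open). Smooth muscle (median -1.23) and epithelial genes (-1.10) lie lowest without LIF and naive pluripotency factors (0.70) highest.

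Imprinted genes, which are expressed from 1 parental allele and many of which promote or restrain embryonic growth, were mostly lower in the lacking lines. Of 18 tested, 12 were lower and 2 higher (median -0.97), where 12.4% of all tested genes were lower and 8.55% higher. With LIF 5 of the list were lower and 4 higher (median -0.24). The 12 lower genes include Usp29, which lay below the filter value in the lacking lines. Igf2, a fetal growth factor, read 8.99, 9.38 and 9.23 in the lacking lines, against 12.43, 12.50, 11.94, 11.59 and 10.21 in the retaining lines. The deltaMBD line was the lowest retaining line and still above all lacking lines. Igf2 was 5.79-fold lower (-2.53, SE 0.44, adjusted p = 0.00287) but 1.39 higher with LIF (adjusted p = 0.0021).

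Peg3 and Usp29 are neighbours in an imprinted domain of chromosome 7. Peg3, a zinc finger protein, read 7.52, 8.13 and 7.82 in the lacking lines, against 10.78, 10.32, 9.93, 10.28 and 8.97 in the retaining lines (-2.23, SE 0.34, adjusted p = 0.00129). Usp29 read 3.84, 4.17 and 4.17 in the lacking lines, below the filter value, against 7.48, 6.41, 6.29, 6.41 and 5.10 in the retaining lines. It entered the test only through the retaining lines, so these levels are a description. Peg3 was also lower with LIF (-1.37). EBRTcH3 was the highest line for both. Ndn, a growth suppressor of the Prader-Willi region, differed by -1.69 (SE 0.16, adjusted p = 9.63e-05).

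In the same Prader-Willi region on chromosome 7, a stretch of small nucleolar RNA (snoRNA) genes between Ube3a and Snrpn showed the opposite. It was picked out after its values were seen. Of its 100 tested genes, 35 were at least 2-fold higher in the lacking lines, 1 passed under 2-fold and 64 did not pass. In the RefSeq order from Ube3a to Snrpn the 35 occupied a block of 36 genes, from place 64 to place 99. Their differences ran from 1.29 to 1.92 (median 1.68), against -0.24 to 0.73 (median -0.15) for the other snoRNA genes. Many of these genes, which are repeated copies, share identical values, so that the 35 genes hold 21 distinct profiles and the other 65 hold 22. They are not independent measurements, and which copy gave the signal is uncertain.

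The median level of the 35 was 8.76, 8.76 and 8.85 in the lacking lines, against 7.29, 7.28, 7.12, 7.11 and 7.31 in the retaining lines. For the other 65 it was 6.15, 6.28 and 6.33 in the lacking lines, against 4.90, 6.71, 6.95, 7.10 and 6.35 in the retaining lines. EBRTcH3 was the lowest line for the other genes of the stretch. Both sets were defined by the contrast itself, so their levels and differences are a description. With LIF 34 of the 35 were also higher, with a median difference of 1.02. The 35 make up a large part of the 54 genes on chromosome 7 among the 257 at least 2-fold higher, and 222 of the 257 lie outside the stretch.

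The Mir302 cluster lies on chromosome 3 within Larp7, on its opposite strand. Its microRNAs are abundant in pluripotent cells of the epiblast type, where they promote the cell cycle, and most share 1 seed, the bases 2 to 8 that pair with target transcripts. Mir302a, Mir302b, Mir302c and Mir302d were picked out after their values were seen. They entered the test only through the retaining lines without LIF, so their class differences are given as a description, with no test. Their 3′ arms, and the hairpin of Mir302a where the table has no 3′ arm, are printed to show the shared letters. The sequences are from RefSeq (GRCm38.p6, plus strand), with the seed in capitals, and in the hairpin the same letters as the seed of Mir302b.
Mir302a hairpin: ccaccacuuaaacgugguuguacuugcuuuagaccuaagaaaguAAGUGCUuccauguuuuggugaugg
mmu-miR-302b-3p: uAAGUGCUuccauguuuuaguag
mmu-miR-302c-3p: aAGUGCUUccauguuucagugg
mmu-miR-302d-3p: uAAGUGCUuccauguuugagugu
mmu-miR-367-3p: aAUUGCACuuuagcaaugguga
They lie at chr3:127545496-127545564 (Mir302a), chr3:127545275-127545297 (Mir302b), chr3:127545406-127545427 (Mir302c), chr3:127545665-127545687 (Mir302d), chr3:127545779-127545800 (Mir367).

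Of these 5 sequences 4 hold AAGUGCU. In Mir302c the letters start 1 base earlier, so its bases 2 to 8 read AGUGCUU. Mir367 has another seed, AUUGCAC. Of the 1738 mature mouse microRNAs that RefSeq lists here, 5 have AAGUGCU as their seed, and 2 of the genes of those 5 were tested here. Whether the array signal comes from the longer precursor RNA or the mature forms was not tested.

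Mir302a read 2.82, 3.03 and 2.71 in the lacking lines, against 6.76, 6.33, 6.44, 7.16 and 5.96 in the retaining lines. The classes were more than 2 log2 units apart, with Mbd3c highest and deltaMBD lowest among the retaining lines. The lacking lines lay below the filter value, where levels are poorly measured. The difference was -3.68 on the deposited scale.

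Mir302c read 2.72, 3.26 and 3.03 in the lacking lines, against 6.85, 5.99, 6.38, 6.86 and 5.74 in the retaining lines (difference -3.36). Mir302b read 1.99, 2.26 and 2.36 in the lacking lines, against 5.56, 4.62, 4.92, 5.41 and 4.68 in the retaining lines (difference -2.83). Mir302d read 3.17, 3.64 and 3.69 in the lacking lines, against 6.29, 5.87, 6.10, 6.57 and 5.65 in the retaining lines (difference -2.60). EBRTcH3 and Mbd3c were the highest lines for all 4 genes. Mir367 did not pass the filter. It read 2.12, 2.43 and 2.22 in the lacking lines and 4.37, 4.03, 3.93, 4.73 and 3.30 in the retaining lines.

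With LIF all 8 lines lay below the filter value for these 4 genes. Larp7, which binds the small nuclear RNA 7SK, read 9.46, 9.57 and 9.57 in the lacking lines, against 9.73, 9.38, 9.51, 9.59 and 9.72 in the retaining lines (-0.05, adjusted p = 0.759). The classes overlapped for Larp7, which lies on the opposite strand, so its level does not stand for the transcript of the microRNAs. Of 355 microRNA genes tested, 13 were higher and 14 lower, these 4 included, where 20.9% of all tested genes passed. Those at least 2-fold lower were 5, namely these 4 and Mir453, and 0 were at least 2-fold higher. Of all 22872 tested genes, 497 were at least 2-fold lower and 257 at least 2-fold higher. Because these 4 entered the test only through the retaining lines, the microRNA counts are a description.

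**Figure D4:**
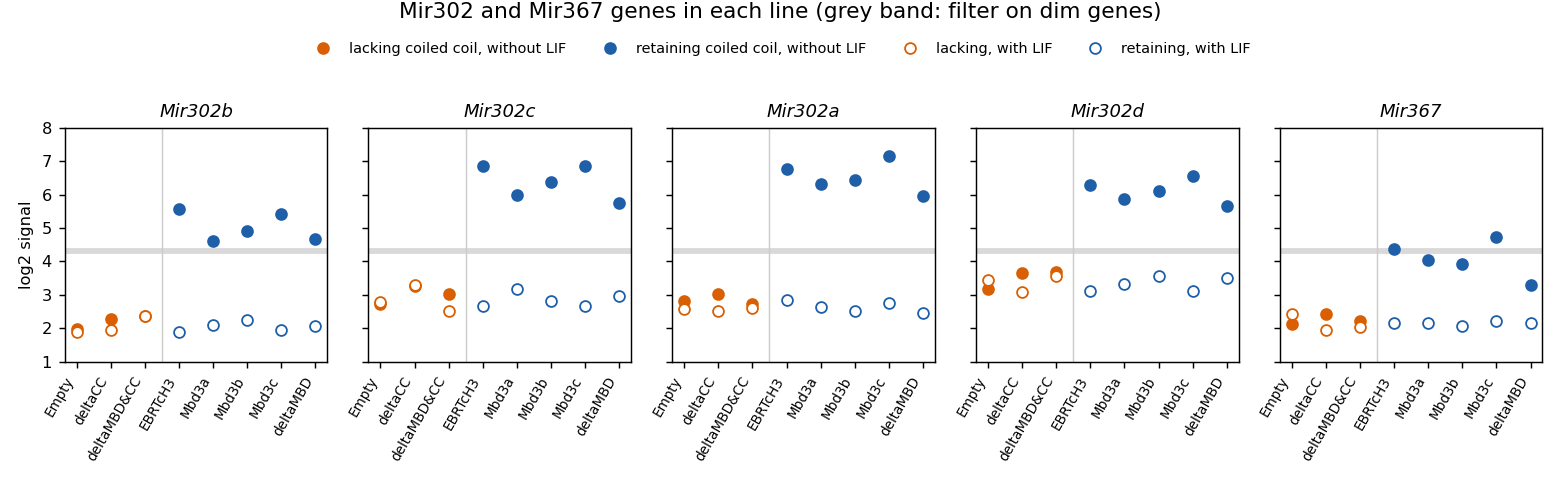
Log2 signal (vertical axis) of the Mir302 genes and Mir367, in their order on the chromosome, in each of the 8 lines (horizontal axis), filled circles without LIF and open circles with LIF, lacking lines in orange and retaining lines in blue, with the filter value as a grey band. Mir302a lies between 5.96 and 7.16 in the retaining lines without LIF, against 2.71 to 3.03 in the lacking lines.

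In the pathway of Nodal, activin, TGF-beta and BMP, 4 of 19 tested genes were higher and 2 lower (8.55% and 12.4% of all tested genes), with a median of 0.05. There were 2 higher without Empty, and 5 higher and 5 lower without deltaMBD. Tgfb2, a TGF-beta ligand, read 4.90, 5.07 and 5.32 in the lacking lines, against 8.60, 7.77, 7.37, 8.10 and 6.71 in the retaining lines (-2.61, SE 0.35, adjusted p = 0.000644). Fst, the activin antagonist follistatin, differed by -2.14 (SE 0.26, adjusted p = 0.000391). Inhbe, an activin subunit that is also a stress-response gene, was 1.53 higher (SE 0.32, adjusted p = 0.00739). Of 14 genes of FGF-ERK signalling 4 were lower and 0 higher, so that 28.6% passed, against 20.9% of all tested genes. Among the lower ones was the feedback inhibitor Spry2 (-0.78).

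The tested NuRD subunits differed by small amounts, and Chd4, the remodeller named at the start, was not among them. Of 14 tested, 4 were higher and 3 lower (median 0.14; 2 higher without Empty or deltaCC, 1 lower without deltaMBD&CC), in a comparison where 20.9% of all genes passed. Mta3, a scaffold subunit, read 11.62, 11.64 and 11.58 in the lacking lines, against 11.12, 11.10, 11.09, 10.79 and 11.34 in the retaining lines (0.53, SE 0.11, adjusted p = 0.00802). The remodeller Chd5 was 0.50 higher and Mta1 differed by -0.40 (adjusted p = 0.0143), a call lost without deltaCC (0.0579) or deltaMBD&CC (0.075). None of these reached 2-fold. Enzymes of DNA methylation had 4 higher and 1 lower of 8 (median 0.33; 2 lower without EBRTcH3). Dnmt3b, a de novo methyltransferase, read 9.69, 10.06 and 9.71 in the lacking lines, against 11.01, 11.12, 11.18, 11.08 and 11.05 in the retaining lines (-1.27, SE 0.10, adjusted p = 2.62e-05). Dnmt3l, its catalytically inactive cofactor, was 2.14-fold higher (1.10, SE 0.15, adjusted p = 0.00069), and Dnmt3a was 0.66 higher. The members of this small family therefore differed in opposite directions.

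Among 17 interferon-inducible and antigen presentation genes 9 were lower and 1 higher (median -0.47), where 12.4% of all tested genes were lower and 8.55% higher. Gbp2, an interferon-induced GTPase, read 5.68, 6.45 and 5.55 in the lacking lines, against 9.88, 9.16, 9.10, 9.67 and 7.75 in the retaining lines (-3.22, SE 0.42, adjusted p = 0.000608). Ifitm3, a restriction factor that is also high in early germ cells, read 8.88, 8.75 and 8.71 in the lacking lines, against 11.38, 11.22, 11.19, 10.89 and 10.55 in the retaining lines (-2.27, SE 0.17, adjusted p = 2.19e-05). B2m, the light chain of MHC class I, differed by -1.90. Ifitm3 was lower with LIF too (-1.92), while Gbp2 was 0.57 higher there. Xaf1 was the higher member.

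Other lists were mixed, in a comparison where 8.55% of all tested genes were higher and 12.4% lower. The p53 targets had 2 higher and 4 lower of 15 (1 higher without Mbd3b, deltaCC or deltaMBD&CC), led by Perp (-1.04), a desmosomal effector of p53. The ATF4 and CHOP response had 2 higher and 4 lower of 16 (4 higher without deltaMBD, 1 without Mbd3a, Mbd3b, Empty, deltaCC or deltaMBD&CC), led by Inhbe and the factor Cebpb (-1.24), with Phgdh, the first enzyme of serine synthesis, at -1.13. Of 18 cell cycle genes 4 were higher and 1 lower (1 higher without Empty, 2 without deltaCC or deltaMBD&CC). Cdkn2a, which encodes inhibitors of the cell cycle, was 0.87 higher (SE 0.08, adjusted p = 9.89e-05). Of 19 genes of glycolysis and hypoxia 1 was higher and 4 lower (2 higher without deltaMBD or deltaMBD&CC), against 7 and 0 with LIF. The glucose transporter Slc2a1 differed by -1.25, and Pfkp, a phosphofructokinase, was 1.18 higher.

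The 2-cell-like list, genes of the cleavage-stage embryo, had 2 lower of 8 (median -0.97; 12.4% of all tested genes were lower). Without EBRTcH3 7 were lower (median -1.31), and without any 1 of the other lines 1 was lower. Zscan4d read 5.12, 4.55 and 4.85 in the lacking lines, against 4.74, 6.84, 6.45, 6.33 and 6.83 in the retaining lines. EBRTcH3 lay among the lacking lines, so the classes overlapped (-1.40, SE 0.42, adjusted p = 0.0399). The call was lost without any 1 of the lines other than EBRTcH3 (adjusted p = 0.0666 to 0.137) and with the title run as a covariate (0.0809). The genes of this family are near-identical copies and their probe sets may share signal.

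The 3 lacking lines were close to each other. The root mean square difference between pairs of them was 0.213 to 0.228 over tested genes, with 53 to 86 genes at least 2-fold apart. Between a lacking and a retaining line it was 0.398 to 0.516 (680 to 1347 genes), and between retaining lines 0.225 to 0.383 (56 to 583 genes). The widest pair of retaining lines was deltaMBD and EBRTcH3. MBD3a without its coiled coil thus lay as near to the empty vector as the double deletion did, with 86 and 81 genes at least 2-fold apart from it.

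Each line was also placed between the classes with genes chosen without it, on a scale from 0 (mean of the other lacking lines) to 1 (mean of the other retaining lines). The median position over 705 to 763 genes was -0.03 for Empty, 0.09 for deltaCC and 0.00 for deltaMBD&CC. Over 706 to 752 genes it was 1.02 for EBRTcH3, 1.04 for Mbd3a, 0.96 for Mbd3b and 1.09 for Mbd3c. The deltaMBD line stood at 0.74 over 841 genes, of which 75.1% were nearer to the retaining mean. Its position was 0.84 for genes higher in the lacking lines and 0.68 for lower ones. Of the retaining lines it was the nearest to the lacking lines for 135 of the 257 higher genes and 287 of the 497 lower genes. This line is 1 array, so its position has no replicate. It is also the only retaining line in the second run of title numbers, which it shares with deltaCC and deltaMBD&CC. Its construct and that run cannot be told apart as the source of its position.

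**Figure D5:**
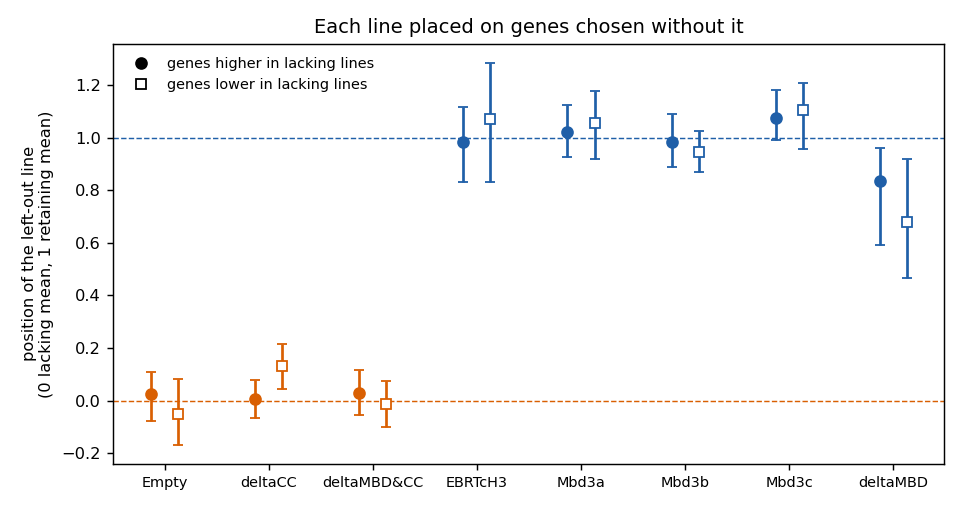
Median position of each line (horizontal axis) with the quartiles over genes as bars, for genes higher (circles) and lower (squares) in the lacking lines, on a scale where 0 is the mean of the other lacking lines and 1 the mean of the other retaining lines, without LIF, for genes chosen without the line. The lacking lines (orange) lie near 0 and the retaining lines (blue) near 1, except deltaMBD at 0.84 for higher and 0.68 for lower genes. The deltaMBD line is the only retaining line in the second run of title numbers.

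The sample titles fall into 2 runs of numbers, which the labels do not call batches. The first holds EBRTcH3, Mbd3a, Mbd3b, Mbd3c and Empty, the second deltaMBD, deltaCC and deltaMBD&CC. Within the first run the 257 higher genes had a median difference of 1.44 and the 497 lower genes of -1.50, and every gene kept its direction. Within the second run the medians were 1.23 and -1.10, and 254 and 496 genes kept their direction. Each run alone has 1 line of 1 class, which that fit assumes to vary like the others. Among the 4 lines with MBD3a constructs the medians were 1.28 and -1.26, with all 257 and 497 genes in the same direction. Because the genes were chosen on all 8 arrays, these counts describe them and are no independent test.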

How the data were processed

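The measured quantity is the deposited log2 signal per probe set, made by the authors; the submitters' processing notes name RMA and affy. The sources used here give no versions, probe set definition or settings. Of 65770 probe sets, 27 without values were left out. The 30439 probe sets with 1 symbol were kept (2146 had several, 33185 none), and 827 symbols were updated from the RefSeq table of GRCm38.p6 after 22653 matched by Entrez identifier. The probe set with the highest mean was used for each of 30102 genes. Testing was limited to the 22872 genes whose signal exceeded the array's 40th percentile on 3 or more of the 16 arrays.

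Class differences come from limma 3.58.1 (R 4.3.3; moderated by eBayes) on the 8 arrays of a condition, with no covariates. The change in difference used all 16 arrays with the cell line as a block. The pairing comes from the titles, since each line has an array in both conditions; deviations of paired arrays correlated at -0.052 to 0.280. No probe-level background was available, so the number of arrays limits the precision. The fit was tested on simulated data. Alternatives were other filters, scalings, probe set rules, moderation, array weights, title runs, a random block and each line left out.

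Members, the 27 gene lists (367 of 415 listed genes were tested; the others were not measured or lay under the filter) and the naming rule were chosen with earlier results of these data known. The rule takes Mbd3, the 15 largest rises and falls without overlap, up to 3 called members of each list with the largest difference, the 8 largest changes in difference and the 8 largest differences shared by both conditions. The text names a part of these. Mir302a to Mir302d, Mir367, Mir453, Larp7, the snoRNA stretch, Esrrb, Klf4, Nanog, Pou5f1, Myl9, Cnn1, Cnn2, Vcl, Vim, Col1a1, Ndn, Dsp, Cdh1, B2m and Elf5 are outside it or were picked after their values were seen. Promoter and microRNA sequences are from RefSeq (GRCm38.p6).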

Additional observations from a re-analysis of the deposited data

Results flagged for a closer look

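Among the genes named, 8 had a line far from the rest of its class without LIF. The deltaMBD line stood apart from the other retaining lines for Nlrp4f, where it was high (5.77), and for Krt18 (11.15), Krt8 (10.83) and Flt1 (7.16), where it was low. EBRTcH3 stood apart for Calml4, where it was high (6.88), and for Zscan4d, where it was low (4.74). Mbd3c stood apart for Thbs1 (11.19), where it was high, and for Pfkp (9.91), where it was low. Chance marks about 1 in 20 groups in this way. With 102 of the named genes called without LIF, several such marks can arise by chance, so the 8 are a description.

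The class difference itself changed with LIF, by a test of that change in limma with the cell line as a block (adjusted p under 0.05), for the following genes. Values are the class difference without LIF minus that with LIF on the log2 scale, and the sign says which way the lacking lines moved relative to the retaining lines. The values of Mir302a to Mir302d and Dcn rest on signal above the filter value in the retaining lines without LIF alone. They are therefore a description, and Dppa3 lay at or below the filter value in the lacking lines.

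The most negative changes were those of Pmp22 -4.34, Tagln -4.06, Krt18 -4.00, Igf2 -3.93, Gbp2 -3.79, Mir302a -3.60, Acta2 -3.58, Fndc3c1 -3.51, Mir302c -3.37, Krt8 -3.26, Bgn -3.20 and Dsc2 -3.13.

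Changes between -3 and -2 were those of Colec12 -2.86, Mir302b -2.86, Vgll3 -2.84, Thbs1 -2.72, Dsp -2.72, Krt7 -2.71, Sema6a -2.70, Mir302d -2.64, St6gal2 -2.61, Tgfb2 -2.57, Cdx2 -2.41, Mixl1 -2.25, Vwa5a -2.22, Cldn6 -2.13 and Cnn2 -2.06.

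Then came Prtg -1.99, Ier3 -1.97, Sema3e -1.89, Flt1 -1.83, Sox11 -1.82, Cd44 -1.82, Slc2a1 -1.79, Msx2 -1.79, Cnn1 -1.78, Nes -1.66, Fst -1.64, Wnt3 -1.58 and Perp -1.52. Below these came Fgf5 -1.49, Ccn1 -1.47, Tbx20 -1.36, Ndn -1.34, Dppa3 -1.28, Irs1 -1.17, B2m -1.13, Dcn -1.04, Sparc -1.02 and Lamb1 -1.02. The smallest negative ones were Cdh1 -0.98, Dnmt3b -0.97, Vcl -0.93, Myl9 -0.89, Cdh2 -0.85, Myc -0.72, Lin28a -0.60, Thy1 -0.54 and Mta1 -0.52.

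Positive changes were found for fewer genes, among them Hhip, whose mean difference had opposite signs in both conditions, though its classes overlapped with LIF. They were Hhip 3.58, Cd80 2.19, Mmrn2 2.14, Septin1 2.06, Inhbe 1.97, Gpr83 1.42, Nlrp4f 1.37, Ccdc141 1.26, Esrrb 1.18, Elf5 1.07, Pecam1 0.88, Nanog 0.85, Tfcp2l1 0.84, Klf4 0.70 and Tbx3 0.69.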

How the results depend on the processing

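Without LIF, leaving out 1 line in turn gave 3014 (without deltaMBD&CC) to 5433 (without deltaMBD) calls, where all lines gave 4791. The first run of title numbers alone gave 1822, the second 0 (4759 at an unadjusted p under 0.05, limma) and the 4 MBD3a constructs 115; these fits have fewer lines. The title run as a covariate over all lines gave 3280 calls without LIF and 2343 with LIF. With LIF (3233 calls) the range over lines left out was 1779 (without deltaCC) to 3866 (without deltaMBD), with 1852 without deltaMBD&CC. There, array weights gave 5373, the first run 679, the second run 0 (3240 unadjusted), the constructs 0 (5497 unadjusted), and leaving out both deltaMBD and Empty 4985. For the change in difference (2759 calls) array weights gave 5414, no replicate block by line 2913 and title run by LIF 1876. Leaving out a line gave 1353 (without deltaCC) to 3914 (without deltaMBD) there, with 1369 without deltaMBD&CC. Its share of higher calls was 34.5%, 46.1% after quantile normalization and 56.2% after median centring. Each class difference within a condition uses 1 array per line. No paired analysis was possible because no line is in both classes. Of 102 named genes called without LIF, 0 were lost with the stricter filter, trend and robust moderation or the mean of probe sets, 1 with no filter, 1 after quantile normalization and 0 after median centring. The first run lost 14, the title run as a covariate 5, the constructs 74 and single lines left out 0 to 9. Myl9 passed with the title run as a covariate (adjusted p = 0.026) and Nanog without deltaMBD (0.013). Direction was reversed for genes that had not passed. Larp7 had 0.043 after median centring, 0.020 in the constructs and 0.017 without deltaMBD and Empty. Pou5f1 ranged from -0.045 (without EBRTcH3) to 0.058 (without deltaMBD&CC) with single lines left out, and had -0.032 without deltaCC, -0.035 with the title run as a covariate, -0.120 in the second run and -0.070 in the constructs. In the second run Mbd3 had 0.175 and Nanog -0.055, and in the first run Mbd3 had -1.62 (adjusted p = 0.0332). The cause was not tested.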

Other observations

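Among the 8 arrays, deltaCC was the lacking line nearest to the retaining lines for 312 of the 497 genes at least 2-fold lower, against 107 for Empty and 78 for deltaMBD&CC. For the 257 higher genes the counts were 77 for deltaCC, 99 for Empty and 81 for deltaMBD&CC. Each is 1 array, and the difference was not tested.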
